A study of Mus musculus with 6 samples.

Results

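The RNA levels of 7 genes that respond to antigen receptor signalling were examined in CD4+ T cells from the spleens of mice with EAE (experimental autoimmune encephalomyelitis), in which immunisation provokes inflammation of the brain and spinal cord. The 7 genes are the nuclear receptor genes Nr4a1, Nr4a2 and Nr4a3, the zinc finger factor genes Egr1, Egr2 and Egr3, and Nab2, which encodes a corepressor of EGR proteins. They were taken by name from the 54532 genes of the deposited table, and were chosen with earlier results of these data known. RNA was sequenced from 3 Ogt-KD mice, whose genotype is Ogtfl/wt CD4-Cre, and 3 mice of the control group, labelled wild type, all C57BL/6 and all at the acute phase of EAE. The Ogt-KD mice kept 1 wild-type allele of Ogt, the gene for O-GlcNAc transferase, an enzyme that attaches a single sugar to nuclear and cytoplasmic proteins. In CD4-Cre mice the recombinase is made in the T lineage under control elements of Cd4. No Cre or floxed allele is named for the control mice, so the Cre and the floxed allele cannot be told apart.

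NR4A proteins are orphan nuclear receptors that bind DNA without a known physiological ligand. EGR proteins bind GC-rich sites through C2H2 zinc fingers. In T cells both gene families are transcribed within minutes to hours of antigen receptor engagement, through ERK, calcineurin and NFAT, and their RNAs are short-lived. Nr4a1 is widely used as a reporter of recent antigen receptor signalling. EGR2, EGR3 and the NR4A proteins are known for restraining T cell responses in anergy, tolerance and exhaustion, and NAB2 is both a target and a feedback inhibitor of EGR proteins.

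None of the 7 genes differed between Ogt-KD and control cells by more than the spread between libraries. Nr4a2, the scarcest of them, lay 1.65-fold higher in Ogt-KD cells (95% interval 0.95 to 2.86) and did not pass the test. Between libraries all 7 varied more than the median gene of like level, Nr4a1, Nr4a3 and Egr1 the most. The NR4A genes, Egr1 and Egr2 were lowest in the libraries numbered 3 of both groups.

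Total counts ran from 18127031 to 25683453 per library. CPM values are reads scaled to the library total, with that total adjusted by a TMM normalisation factor. Ogt, the targeted gene, had 661.0, 597.9 and 458.0 CPM in Ogt-KD replicates 1, 2 and 3, against 598.6, 627.2 and 561.8 CPM in controls. Its log2 fold change was -0.06 (SE 0.15), and a count over the whole gene may include exons that a floxed deletion leaves in place. The T cell genes Cd3e and Cd4 were abundant in every library, at 241 to 329 and 738 to 901 CPM. The 11 markers of monocytes and macrophages, cells that also express Nr4a1 and Egr1, summed to 833, 916 and 3206 CPM in Ogt-KD replicates 1, 2 and 3 and to 1577, 1616 and 3554 CPM in control replicates 1, 2 and 3. None of these 11 markers was at 0 in all libraries. Dendritic cell markers, of which there were 8, summed to between 77.2 and 217 CPM in Ogt-KD libraries and between 37.4 and 90.7 CPM in control libraries. In bulk RNA, fewer cells with a transcript and less transcript per cell cannot be told apart.

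Levels of different genes were compared as the authors' FPKM, which divides counts by gene length. The order was the same in all 6 libraries: Nr4a1, Egr1, Nab2, Egr3, Egr2, Nr4a3, Nr4a2. Nr4a1 stood at 75.3 ± 28.9 FPKM in Ogt-KD and 65.7 ± 16.3 FPKM in control libraries (SD, n = 3 each). It ranked above 94.9% to 98.3% of the genes with any reads in a library. Egr1 followed at 21.5 ± 6.87 FPKM in Ogt-KD and 18.7 ± 2.70 FPKM in control libraries, and Nab2 at 12.4 ± 0.671 and 12.7 ± 2.36 FPKM in the same groups. Egr3 (7.67 ± 1.49 FPKM in Ogt-KD and 7.28 ± 0.680 FPKM in control libraries) and Egr2 (6.63 ± 1.21 and 6.61 ± 0.864 FPKM) were neighbours. Egr3 was the higher in every library, though nearly level in control replicate 2 (6.730 against 6.729 FPKM). Nr4a3 had 4.04 ± 1.69 FPKM in Ogt-KD and 3.50 ± 1.10 FPKM in control libraries, and Nr4a2 had 1.17 ± 0.346 and 0.706 ± 0.226 FPKM.

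In each family 1 gene supplied most of the transcript. Nr4a1 supplied 92.4%, 93.8% and 94.4% of the summed NR4A FPKM in Ogt-KD replicates 1, 2 and 3, against 94.0%, 93.6% and 94.6% in control replicates 1, 2 and 3. Nr4a2 supplied 1.65%, 1.31% and 1.48% in Ogt-KD and 0.950%, 1.13% and 0.920% in control libraries. Every Ogt-KD share lay above every control share, although in CPM the groups overlapped for Nr4a2. In CPM the groups did not overlap for 13.3% of all genes tested. This share of a sum is compared without a test, and how often such shares separate the groups was not counted. Egr1 made up 54.7% to 62.7% of the summed EGR FPKM in Ogt-KD and 55.0% to 59.8% in control libraries. Egr2 made up 17.1% to 21.3% in Ogt-KD and 20.1% to 20.6% in control libraries, and Egr3 20.2% to 24.0% in Ogt-KD and 20.1% to 24.9% in control libraries.

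The NR4A promoters are shown because these genes are known to respond to cyclic AMP and calcium, and 1 Egr2 promoter is shown beside them for its different motif. RefSeq windows (GRCm38.p6) from 250 bases before to 50 after a transcription start were at hand for 5 of the 7 genes: Nr4a1, Nr4a2, Nr4a3, Egr2 (5 windows) and Nab2. Capitals mark the CREB half-site TGACG on either strand, the EGR site GCGNGGGCG on either strand, and the CArG box bound by serum response factor. The windows are chr15:101266596-101266895 (plus strand) for Nr4a1, chr2:57123954-57124253 (minus strand) for Nr4a2, chr4:48045055-48045354 (plus strand) for Nr4a3, and chr10:67537680-67537979 (plus strand) for the most downstream start of Egr2, each written 5′ to 3′ on the gene's strand.
Nr4a1: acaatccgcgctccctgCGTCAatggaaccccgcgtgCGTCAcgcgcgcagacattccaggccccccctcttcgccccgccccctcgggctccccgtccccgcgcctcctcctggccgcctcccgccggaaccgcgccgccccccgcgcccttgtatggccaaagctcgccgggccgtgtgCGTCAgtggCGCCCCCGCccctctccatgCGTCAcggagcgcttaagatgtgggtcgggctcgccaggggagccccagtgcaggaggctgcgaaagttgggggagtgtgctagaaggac
Nr4a2: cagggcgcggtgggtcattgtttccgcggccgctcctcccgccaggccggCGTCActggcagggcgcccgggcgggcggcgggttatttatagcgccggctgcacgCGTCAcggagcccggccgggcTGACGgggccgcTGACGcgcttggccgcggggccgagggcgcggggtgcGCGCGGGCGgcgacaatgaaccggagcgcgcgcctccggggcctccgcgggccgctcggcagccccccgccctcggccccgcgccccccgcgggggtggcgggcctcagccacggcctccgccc
Nr4a3: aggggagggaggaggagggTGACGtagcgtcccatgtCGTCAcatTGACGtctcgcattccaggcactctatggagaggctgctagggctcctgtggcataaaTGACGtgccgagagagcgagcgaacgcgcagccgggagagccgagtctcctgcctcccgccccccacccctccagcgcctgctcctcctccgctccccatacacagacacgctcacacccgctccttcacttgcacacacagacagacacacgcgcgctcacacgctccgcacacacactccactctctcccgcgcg
Egr2: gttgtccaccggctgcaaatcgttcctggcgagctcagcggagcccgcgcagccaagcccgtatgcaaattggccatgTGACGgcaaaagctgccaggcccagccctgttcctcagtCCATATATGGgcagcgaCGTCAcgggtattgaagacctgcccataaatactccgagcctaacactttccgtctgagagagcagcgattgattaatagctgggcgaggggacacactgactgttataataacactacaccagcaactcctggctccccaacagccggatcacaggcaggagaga

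Each of the 3 NR4A windows held 4 CREB half-sites. At least 1 stood in 20.8% of the 32817 windows of the same length in the table, and at least 4 in 0.232%. In Nr4a1 they began 233, 213, 69 and 40 bases before the start. The EGR site, present in 5.56% of all windows, was found in the Nr4a1 and Nr4a2 windows and not in that of Nr4a3. In Nr4a1 it lay from -60 to -52 and overlapped a GC box (GGGCGG, 35.6% of windows). The full CREB palindrome TGACGTCA (1.79% of windows), the NBRE bound by NR4A monomers (AAAGGTCA, 1.51%) and the NFAT core TGGAAA (21.4%) were in none of the 3. The Egr2 window differed from these in holding a CArG box, a motif found in 1.63% of windows, beside 2 CREB half-sites. Of the 5 Egr2 windows 4 held a CArG box, and 3 of those 4 overlap each other over most of their length. The most upstream Egr2 window and the Nab2 window held none of the marked motifs. These matches describe letters in a window.

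Nr4a1, on chromosome 15 (101254269-101274795, plus strand), encodes NUR77. Its counts were 4878, 7513 and 4512 reads in Ogt-KD replicates 1, 2 and 3, against 5899, 6469 and 2932 in control replicates 1, 2 and 3. Scaled by the adjusted library total these are 239, 380 and 180 CPM in Ogt-KD and 269, 260 and 165 CPM in control libraries. The highest library, Ogt-KD replicate 2, and the lowest, control replicate 3, belong to different groups, but the remaining Ogt-KD values lie among or between the control values. Its log2 fold change, Ogt-KD relative to control, was 0.20 (SE 0.30, 95% interval -0.51 to 0.91, edgeR adjusted p = 0.962). Its direction turned without Ogt-KD replicate 2 (-0.15) and without control replicate 3 (-0.01).

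Nr4a3, on chromosome 4 (48045153-48086447, plus strand), encodes NOR1 and followed Nr4a1 closely at a lower count. It had 26.4, 33.5 and 13.3 CPM in Ogt-KD replicates 1, 2 and 3, and 24.8, 24.9 and 13.3 CPM in control replicates 1, 2 and 3. The libraries numbered 3 held nearly the same level in both groups, and Ogt-KD replicate 2 was again the highest. Its log2 fold change was 0.21 (SE 0.37, 95% interval -0.67 to 1.09, edgeR adjusted p = 0.970), and was -0.09 without Ogt-KD replicate 2 and -0.05 without control replicate 3.

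Nr4a2, on chromosome 2 (57106830-57124003, minus strand), encodes NURR1. Its counts were 101, 121 and 82 reads in Ogt-KD replicates 1, 2 and 3, against 69, 90 and 33 in control replicates 1, 2 and 3, or 4.94, 6.12 and 3.27 CPM against 3.15, 3.62 and 1.86 CPM. The groups overlapped in a single pair of libraries, Ogt-KD replicate 3 lying below control replicate 2. The log2 fold change was 0.72 (SE 0.34, 95% interval -0.07 to 1.52, edgeR adjusted p = 0.681), and 10.2% of the genes tested had smaller p-values. Between libraries of the same replicate number the log2 difference was 0.65, 0.76 and 0.81, higher in Ogt-KD. The labels do not state that these libraries are pairs, and the share of all genes with such agreement was not counted. With the replicate number as a block the log2 fold change was 0.74 (SE 0.20, edgeR adjusted p = 0.185). In the authors' deposited table Nr4a2 has a log2 fold change of 0.71 with p = 0.0473 and an adjusted p of 0.676. The estimate stayed positive under all 16 alternative settings, from 0.47 without control replicate 3 to 0.93 without Ogt-KD replicate 3, and passed in none.

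**Figure D1:**
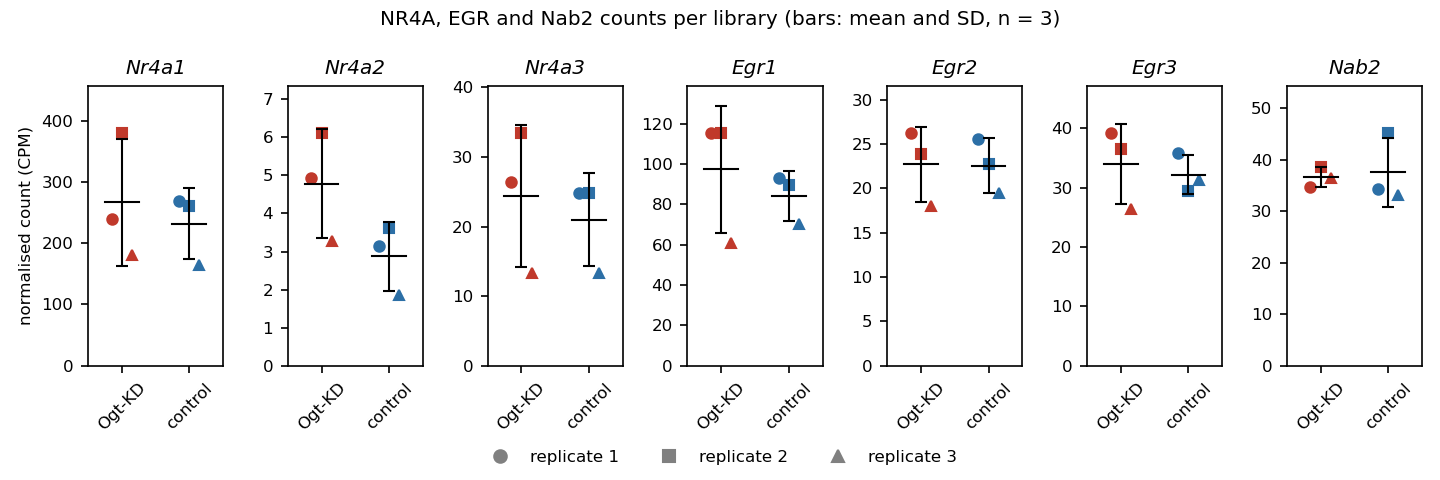
Normalised counts (CPM, vertical axes from 0) of the 7 genes in each library, with Ogt-KD left of control, marker shapes for replicate numbers and bars for the mean and SD of 3 libraries. The triangles of replicate 3 lie lowest in both groups for Nr4a1, Nr4a2, Nr4a3, Egr1 and Egr2, and the groups overlap in every panel.

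Egr1, on chromosome 18, is the family member that also responds to growth factors and stress in most cell types. It had 116, 115 and 61.1 CPM in Ogt-KD replicates 1, 2 and 3, against 93.1, 89.5 and 70.2 CPM in control replicates 1, 2 and 3. The first pair of Ogt-KD libraries lay above all controls and Ogt-KD replicate 3 below all of them. For Egr1 the log2 fold change was 0.21 (SE 0.25, 95% interval -0.39 to 0.80, edgeR adjusted p = 0.946). Single libraries moved this value, to 0.45 without Ogt-KD replicate 3 and to 0.0683, 0.0642 and 0.0676 without Ogt-KD replicate 1, Ogt-KD replicate 2 or control replicate 3.

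Egr2, on chromosome 10 (67535475-67542188, plus strand), encodes a factor that NFAT induces in T cells. It had 26.3, 23.8 and 18.0 CPM in Ogt-KD replicates 1, 2 and 3, and 25.5, 22.8 and 19.4 CPM in control replicates 1, 2 and 3. Matching numbers thus held nearly matching levels in both groups. The log2 fold change was 0.01 (SE 0.17, 95% interval -0.40 to 0.42, edgeR adjusted p = 0.998), an interval that spans folds from 0.756 to 1.34.

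Egr3, on chromosome 14 (70077203-70082614, plus strand), shares much of its role in T cells with Egr2. It had 39.3, 36.4 and 26.4 CPM in Ogt-KD replicates 1, 2 and 3, against 35.9, 29.5 and 31.2 CPM in control replicates 1, 2 and 3. Ogt-KD libraries held both the highest values and the lowest. For Egr3 the log2 fold change was 0.08 (SE 0.17, 95% interval -0.31 to 0.47, edgeR adjusted p = 0.977).

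Nab2, on chromosome 10 (127660918-127668568, minus strand), was the steadiest of the 7 genes. It had 34.6, 38.6 and 36.5 CPM in Ogt-KD replicates 1, 2 and 3, against 34.3, 45.3 and 33.1 CPM in control replicates 1, 2 and 3. Only control replicate 2 stood apart. The log2 fold change was -0.04 (SE 0.14, 95% interval -0.37 to 0.29, edgeR adjusted p = 0.983), so the interval reaches folds of 0.776 and 1.22. The locus overlaps Nemp1 by 1668 bases and Stat6 by 40 bases on the other strand, and the strand setting of the counting is not given in the sources used here, so reads of these genes may be mixed. On the log2 fold scale Nemp1 stood at 0.20 (SE 0.10) and Stat6 at -0.18 (SE 0.11), and neither passed. Relative to Egr1 the FPKM of Nab2 was 0.457, 0.509 and 0.912 in Ogt-KD replicates 1, 2 and 3, against 0.561, 0.771 and 0.720 in control replicates 1, 2 and 3.

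**Figure D2:**
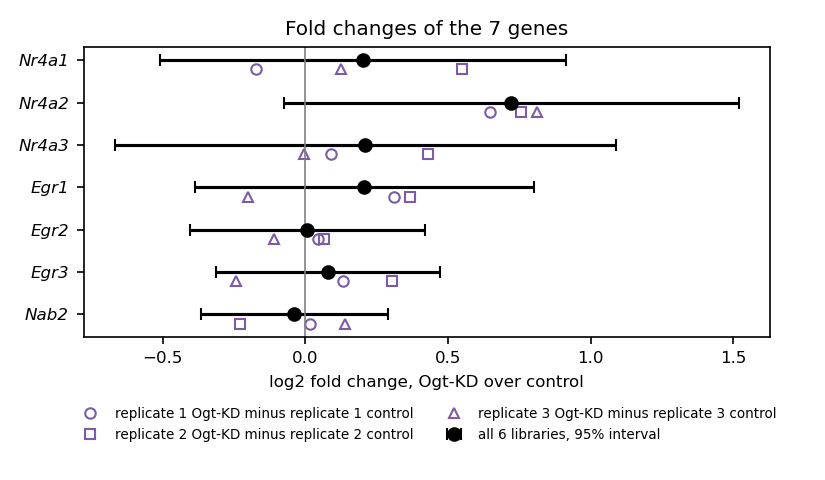
Log2 fold change (horizontal axis, Ogt-KD relative to control) for each gene, with the edgeR estimate and 95% interval in black and the difference between libraries of the same replicate number as open symbols. All 7 intervals include 0, and the 3 open symbols of Nr4a2 lie between 0.65 and 0.81.

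All 7 genes passed the filter on low counts, and none passed an adjusted p of 0.05 in edgeR, DESeq2 or limma-voom. Over the whole table edgeR called 1 of 16075 genes, which is 0.00622%, and DESeq2 0.39%. At an unadjusted p under 0.05 edgeR had 0 of the 7 and DESeq2 and edgeR with the replicate block 1 of the 7, Nr4a2, against 7.52% of all genes in edgeR without the block, 13.2% with it and 4.45% in DESeq2. With the block edgeR called 47 genes, 0.292% of those tested (0.199% higher and 0.0933% lower in Ogt-KD), and 0 of the 7. Groups overlapped for all 7 genes, whereas for 13.3% of all genes tested they did not. Fold changes were above 0 for 6 of the 7. Their median on the log2 scale was 0.20, beside -0.0048 over all genes tested. That median turned to -0.03 when Ogt-KD replicate 2 was left out and to -0.01 when control replicate 3 was, and it was 0.42 with Ogt-KD replicate 3 left out.

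The larger differences were between libraries within a group. The SD of log2 CPM within groups was 0.48 for Nr4a1, 0.61 for Nr4a3 and 0.41 for Egr1, which is higher than for 94.4%, 96.1% and 94.2% of genes with a mean log2 CPM within 1 of theirs. It was 0.48 for Nr4a2 (73.6%), 0.24 for Egr2 (69.4%), 0.24 for Egr3 (74.5%) and 0.18 for Nab2 (62.0%). Nr4a1, Nr4a3 and Egr1 were thus the most variable of the 7 for their level, and Nab2 the least.

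**Figure D3:**
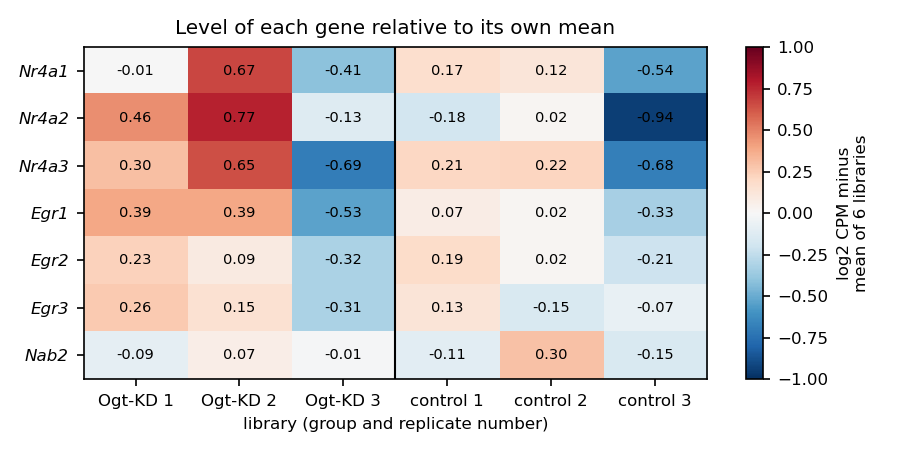
Log2 CPM of each gene minus its mean over the 6 libraries (colour and printed value), with genes in rows and libraries in columns, Ogt-KD left of control. Blue cells fill the columns of Ogt-KD replicate 3 and control replicate 3, and Ogt-KD replicate 2 has the highest NR4A values, at 0.67, 0.77 and 0.65.

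The replicate number went with this variation. In both groups replicate 3 lay below the mean of replicates 1 and 2 for 7 of 7 genes, whereas 35.3% of all genes tested did so in both groups. The difference in log2 CPM was -1.16 in Ogt-KD and -0.90 in control libraries for Nr4a3, and -0.74 and -0.68 for Nr4a1. It was -0.75 in Ogt-KD and -0.85 in control libraries for Nr4a2, and -0.92 and -0.38 for Egr1. For the NR4A genes the step was thus of similar size in both genotypes. The step was smaller for Egr2 (-0.48 in Ogt-KD and -0.31 in control), and in Egr3 (-0.52 and -0.06) and Nab2 (-0.0015 and -0.25) it was near 0 in 1 of the groups. The labels do not say what a replicate number stands for, and this comparison was chosen after the values were seen, so it has no test. The summed monocyte and macrophage markers given above were highest in the libraries numbered 3 of both groups, and the summed dendritic cell markers lowest there. In those libraries Vcam1 was the largest part of the monocyte and macrophage sum, at 1239 CPM in Ogt-KD and 1283 CPM in control. Lyz2, Ly6c2 and Cx3cr1, of the same list, were not highest in the library numbered 3 of either group. In full, the dendritic cell sum was 152, 217 and 77.2 CPM in Ogt-KD replicates 1, 2 and 3, against 78.3, 90.7 and 37.4 CPM in control replicates 1, 2 and 3. None of the 8 dendritic cell markers was at 0 in all libraries. The sum of the 8 erythroid markers was, like that of the monocyte and macrophage markers, highest in the libraries numbered 3. It was 44.5, 59.8 and 218 CPM in Ogt-KD replicates 1, 2 and 3, against 41.0, 21.8 and 59.3 CPM in control replicates 1, 2 and 3. Of these 8, 7 had log2 fold changes above 0, the median being 1.53, and none was at 0 in all libraries. The 8 neutrophil markers summed to 119, 319 and 166 CPM in Ogt-KD replicates 1, 2 and 3. In control replicates 1, 2 and 3 they summed to 126, 105 and 211 CPM. The neutrophil sum was thus highest in Ogt-KD replicate 2, which also had the highest NR4A values and the highest dendritic cell sum. Among the controls the neutrophil sum was highest in replicate 3, which had the lowest NR4A values. The 8 B and plasma cell markers summed to 330, 236 and 343 CPM in Ogt-KD and to 153, 349 and 323 CPM in control libraries. The part of any of these cells in the levels of the 7 genes was not tested.

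**Figure D4:**
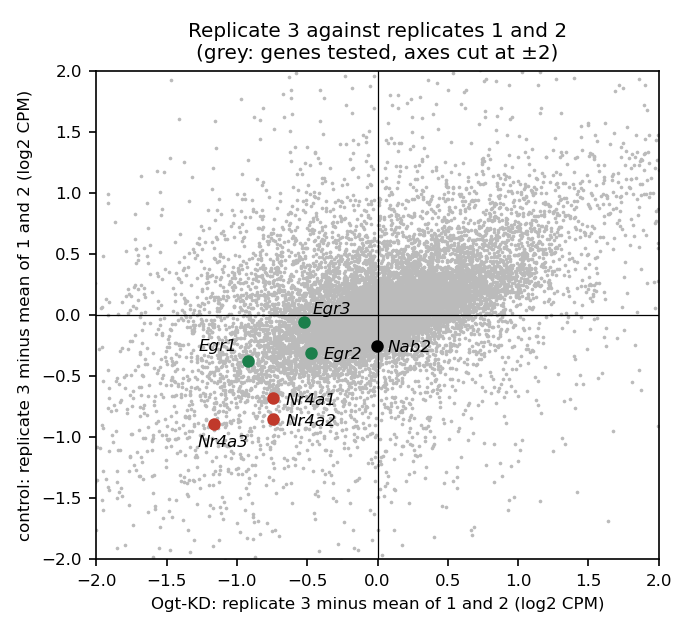
Difference between replicate 3 and the mean of replicates 1 and 2 in log2 CPM, in Ogt-KD (horizontal axis) and control libraries (vertical axis), for all genes tested (grey) and the 7 genes (NR4A red, EGR green, Nab2 black). The 3 NR4A genes lie at the lower left, between -1.16 and -0.68 on both axes.

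How alike 2 genes were was measured as the root mean square difference of their log2 CPM over the 6 libraries, after removing each gene's own mean. Among the 7, Egr2 and Egr3 were the closest pair, at 0.10, followed by Egr1 and Egr2 at 0.18 and Nr4a1 and Nr4a3 at 0.18. Nab2 lay 0.35 from Egr1, and 41.2% of the 10838 genes compared were nearer to Egr1 than that. Of those genes, the nearest to Nr4a1 were Phf11a (0.0997), Crispld2 (0.118) and Gvin1 (0.120). Among those near to Nr4a3 were Arhgap28 (0.119) and Cacnb3 (0.141), and the nearest to Nr4a2 were Swap70 (0.0450), Myo1e (0.103) and Il12rb2 (0.105). For Egr1 they were Srcap (0.0684), Dennd4b (0.0834) and Malat1 (0.0870). Egr2 was nearest to Zbtb37, Zscan20 and Il27ra (0.0304 to 0.0370), Egr3 to Zkscan7, Gpd2 and Palm3 (0.0302 to 0.0516), and Nab2 to Cybc1, Zbtb7a and Ppm1k (0.0392 to 0.0534). These are the closest of many genes over 6 libraries and are given as a description. A gene that varies little is near to many others, and Nr4a1, Nr4a3 and Egr1 themselves lay 0.40, 0.51 and 0.34 from a flat profile.

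Neither of the remaining family members listed passed the test. Egr4 was barely detected, at 4 to 11 reads per library, and Nab1, the paralog of Nab2, stood at 96.0 ± 6.41 CPM in Ogt-KD and 91.5 ± 6.65 CPM in control libraries (log2 fold change 0.07, SE 0.09, n = 3 each). Of 26 genes of the signal route, from ERK and SRF to calcineurin, NFAT, MEF2, HDAC7 and CREB, 5 were higher than 0 and 21 lower, at a median of -0.06 (log2). None passed in edgeR, with or without the block, in DESeq2 or in limma-voom. In edgeR 0 had an unadjusted p under 0.05, beside 7.52% of all genes. Mapk3, which encodes the kinase ERK1, had 0.18 (SE 0.08). Mef2c, which encodes a member of the MEF2 family that acts on the Nr4a1 promoter, had 0.37 (SE 0.29). It stood at 9.90 ± 2.47 CPM in Ogt-KD and 7.62 ± 2.51 CPM in control libraries. Mef2d, at 218 ± 25.6 and 250 ± 32.8 CPM in the same groups, had -0.20 (SE 0.14), and Mef2a had -0.09 (SE 0.10). On the lower side Creb1, which encodes the factor CREB, had -0.22 (SE 0.10) and Mkl2, which encodes an SRF coactivator, -0.20 (SE 0.09). Srf itself stood at 109 ± 15.8 CPM in Ogt-KD and 121 ± 8.98 CPM in control libraries, and Nfatc1 at 229 ± 26.7 and 235 ± 14.9 CPM. Hdac7, which encodes a repressor of Nr4a1 in thymocytes, had 274 ± 55.7 CPM in Ogt-KD and 275 ± 16.8 CPM in control libraries. Srf, Nfatc1 and Hdac7 were picked from the list for these roles, and Mef2a and Mef2d for their family, after their values were seen.

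Of 28 genes described as targets of EGR2, EGR3 or NR4A in T cells, 27 were tested, of which 17 were higher than 0 and 10 lower, at a median of 0.11 (log2). In edgeR none passed, and 8 had an unadjusted p under 0.05, all of them higher in Ogt-KD, beside 7.52% of all genes. With the block 2 rose, Foxp3 and Ikzf2, beside 0.292% of all genes called. DESeq2 called 2, Tnfrsf9 and Ikzf2, beside 0.39% of all genes, and limma-voom 0. Ikzf2, which encodes Helios, had 206, 248 and 219 CPM in Ogt-KD replicates 1, 2 and 3, against 118, 167 and 132 CPM in control replicates 1, 2 and 3. Every Ogt-KD library was above every control library, which was true for 7.43% of all genes. Its log2 fold change was 0.69 (SE 0.15, edgeR adjusted p = 0.483, 0.0406 with the block). Tnfrsf9, which encodes the costimulatory receptor 4-1BB, had 0.78 (SE 0.17), while Socs3, an inhibitor of cytokine signalling, had -0.23 (SE 0.10) and Crtam, a surface adhesion receptor of activated T cells, -0.51 (SE 0.28). Foxp3 and Ikzf2 are markers of regulatory T cells as well, and Cblb, a ubiquitin ligase gene linked to EGR2 and EGR3 in anergy, stood at 121 ± 8.43 CPM in Ogt-KD and 111 ± 14.8 CPM in control libraries. Cblb was picked for that role after its value was seen.

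Further genes of the antigen response did not move as 1 group. Of 20 tested, 16 were higher than 0 and 4 lower, at a median of 0.33 (log2), and none passed in edgeR or limma-voom. At an unadjusted p under 0.05 edgeR had 4 higher and 2 lower, beside 7.52% of all genes in either direction. DESeq2 called 3, Tnfaip3, Ifng and Tnfrsf4, beside 0.39% of all genes. With the block Tnfrsf4, which encodes the costimulatory receptor OX40, rose (edgeR adjusted p = 0.0363). Tnfaip3, which encodes the NF-kB inhibitor A20, fell (0.0481), and the block called 0.292% of all genes. Tnfaip3 had 388, 511 and 630 CPM in Ogt-KD replicates 1, 2 and 3, against 716, 1021 and 947 CPM in control replicates 1, 2 and 3. Unlike the NR4A genes, it was not lowest in the libraries numbered 3. Ifng, the gene for interferon gamma, stood at 1.33 (SE 0.27) on the log2 fold scale, and Tagap, a T cell activation gene, at -0.36 (SE 0.09).

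Immediate early genes that tissue dissociation also raises lay mostly below 0. Of 30 tested, 25 were lower than 0 and 5 higher, at a median of -0.24 (log2). The median of the 7 genes was 0.20, but it was -0.03 without Ogt-KD replicate 2 and -0.01 without control replicate 3. In edgeR none passed with or without the block, and 6 had an unadjusted p under 0.05, all of them lower, beside 7.52% of all genes. DESeq2 called 1, Klf2, beside 0.39% of all genes, and limma-voom 0. Fos, which encodes an AP-1 subunit and like Egr1 is driven by SRF, had 127, 168 and 91.5 CPM in Ogt-KD replicates 1, 2 and 3, against 184, 342 and 190 CPM in control replicates 1, 2 and 3. All Ogt-KD libraries were below all controls for Fos, and for Egr1 they were not. The groups did not overlap, in either direction, for 13.3% of all genes tested. Its log2 fold change was -0.89 (SE 0.31, edgeR adjusted p = 0.596), and Fos was named for its shared SRF control after its value was seen. Klf2, a quiescence factor gene, had -0.49 (SE 0.10) and Klf6 -0.49 (SE 0.12), while the stress genes Atf3 and Gadd45b had 0.84 (SE 0.70) and 0.34 (SE 0.23). The near-identical heat shock genes Hspa1a and Hspa1b, the lowest of the list, had -2.27 (SE 1.49) and -3.03 (SE 1.47), with 26.8 and 48.2 CPM in control replicate 2 and at most 5.11 CPM in any other library. They were named after their values were seen, and reads may be split between them. The difference between these lists was not tested.

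**Figure D5:**
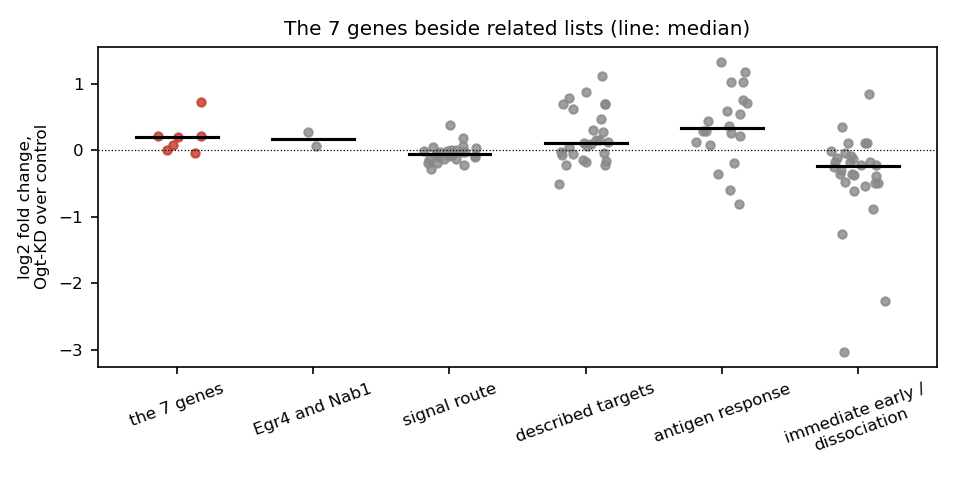
Log2 fold change (vertical axis, Ogt-KD relative to control) for each tested gene of the 7 and of the 5 related lists (points), with the median of each as a line. The medians are 0.20 for the 7 genes, 0.17 for Egr4 and Nab1, -0.06 for the signal route, 0.11 for described targets, 0.33 for the antigen response and -0.24 for the immediate early and dissociation list.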

How the data were processed

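Integer read counts per Ensembl gene were deposited by the authors for each library, and these counts were the input of every test. The submitters' processing notes name TopHat2 2.0.9, Bowtie2 2.0.6 and mm9; how reads were counted, and by which strand setting, is not given in the sources used here. Positions: the deposited coordinates of all 7 genes, and of 53499 of the 54409 identifiers found in GENCODE M21, are identical to GRCm38, which is therefore the build of the positions. The authors' deposited FPKM, made with the deposited gene length in bases (an other unit), served to compare genes. The authors' mean signal per group, log2 fold change and p-value were copied from the deposited table and not retested.

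The fit used edgeR 4.0.16 (R 4.3.3), with TMM, filterByExpr (16075 of 28456 genes with a count), a robust quasi-likelihood F test and Benjamini-Hochberg adjustment over all genes tested, at a threshold of 0.05. DESeq2 1.42.0 and limma 3.58.1 (voom) were alternatives. The fit was tested on simulated data. The smallest Spearman correlation between libraries was 0.970 and the smallest chi-squared per degree of freedom 9.27, so no library was a copy. P-values measure the spread between these 6 libraries. After the group means were removed, same-numbered libraries correlated at 0.126, 0.325 and 0.494 across genes, so a fit with the replicate number as a block was also run. The labels state no pairing. Control replicate 2 and Ogt-KD replicate 1, whose numbers differ, had 0.231. Members and lists were chosen with earlier results of these data known. Named genes were the 7 members, from each list the genes past the threshold or, with none, the lowest 2 p-values on either side of 0, and the 3 genes nearest to each member (average log2 CPM of at least 1), of which 1 is not reported here.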

Additional observations from a re-analysis of the deposited data

How the results depend on the processing

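None of the 7 genes passed under any of 16 alternatives, of which the 3 that combine the replicate block with leaving out a pair were chosen after the data were seen. Of 112 values of single genes 94 kept their sign. Egr2 had log2 fold changes of -0.0237 in limma-voom, -0.0093 with no filter, and -0.0196 and -0.0292 with the block without replicate 1 or 2 of both groups. Nab2 had 0.0167 on total counts and 0.0806 with the block without replicate 2, where Nr4a1 had -0.0211 and Egr3 -0.0512. Leaving out 1 library gave -0.15 to 0.42 for Nr4a1, -0.0898 to 0.50 for Nr4a3, 0.0642 to 0.45 for Egr1, -0.11 to 0.15 for Egr2, -0.0332 to 0.23 for Egr3, -0.14 to 0.12 for Nab2, and -0.03 to 0.42 for the median of the 7. Genes called over the whole table numbered 111 in DESeq2, 4 with no filter, 47 with the replicate block and 35 without replicate 3 of both groups. They numbered 1 or 2 without 1 library, and 295, 2 and 295 with the block without replicate 1, 2 or 3 of both groups, against 1 in edgeR. The cause was not tested. With 3 libraries a group the intervals of Nr4a1 and Nr4a3 include folds of 1.88 and 2.13, so differences of that size lie within the error. Nr4a2 rests on 33 to 121 reads per library.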
